A study of Mus musculus with 6 samples.

Results

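Transcripts of 46 cytosolic ribosomal protein genes, 24 of the large and 22 of the small subunit, were examined in HL-1, an established line of mouse cardiomyocytes that goes back to an atrial tumour. They were chosen by gene symbol from 18193 genes with a probe set annotated to 1 symbol, as the symbols Rpl or Rps followed by a number and any letters, Rplp0 to Rplp2, and Rpsa. Each gene was represented by its probe set with the highest mean log2 signal over the 6 arrays. The cells had spent 8 hours in 1% oxygen, called hypoxia here, or in 21% oxygen, called normoxia, with 3 arrays for each condition and no other treatment or genetic change named in the labels. All arrays come from 1 cell line, and the labels do not say that the samples were separate cultures, so p-values reflect only how far these samples differ among themselves, which may be technical. In RNA from whole cultures, fewer cells of a kind and less RNA per cell cannot be told apart.

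Ribosomes are built from a large and a small subunit, each made of ribosomal RNA and a defined set of proteins. The small subunit reads the mRNA, and the large subunit joins amino acids and sends the growing chain through an exit tunnel. Most ribosomal protein mRNAs begin with a C followed by a stretch of pyrimidines, the terminal oligopyrimidine (TOP) element, through which mTORC1 and Larp1 control their translation. Low oxygen is known to restrain mTORC1 and so the translation of these mRNAs, which an array of total RNA does not measure.

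A sequence feature that most of these genes share is shown first, since ribosomal protein mRNAs are known for it. Windows from 250 bases before to 50 bases after an annotated start were taken from RefSeq (GRCm38.p6) and matched 40 of the 46 genes, in 48 windows. A C followed by at least 7 pyrimidines, read on the transcribed strand within 50 bases on either side of the start, was present for 35 of the 40 genes (87.5%), against 32.0% of all 27025 genes with a window. The share was 29.9% of the 67 mitochondrial ribosomal protein genes with a window and 32.4% of 37 ribosome biogenesis genes. Per window it was 77.1% of the 48 and 28.8% of all. The following windows of 30 bases, with the longest such run in capitals, belong to genes whose values are described next. RefSeq starts can lie some bases away from the true start, so a run is a description and not a mapped TOP element.
Rpl11 (chr4:136053357-136053386, minus strand): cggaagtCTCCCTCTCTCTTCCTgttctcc
Rpl13a (chr7:45128722-45128751, minus strand): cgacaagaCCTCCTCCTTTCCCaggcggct
Rpl22 (chr4:152325679-152325708, plus strand): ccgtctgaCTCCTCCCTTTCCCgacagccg
Rpl3l (chr17:24727846-24727875, plus strand): tggtggggaggCCCCTTCCTaacctgcagg
Rps6 (chr4:86857349-86857378, minus strand): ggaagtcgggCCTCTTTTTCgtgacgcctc
Rps19 (chr7:24884623-24884652, plus strand): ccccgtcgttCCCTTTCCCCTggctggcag
Rps25 (chr9:44407684-44407713, plus strand): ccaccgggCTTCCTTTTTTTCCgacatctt
Rps27l (chr9:66946053-66946082, plus strand): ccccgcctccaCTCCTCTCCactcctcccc
Counted from the annotated start used, the runs of Rpl22, Rps19, Rps25 and Rps27l began at -39, -43, -22 and -22. These lay wholly before that start, whereas the run of Rpl3l began at base 32 after it. The runs of Rpl11 and Rpl13a, of 16 and 14 pyrimidines, were longer than those of Rpl3l and Rps27l, of 9 each. Rplp0, Rps28, Rps4x, Rpsa and Rps3, which are named below, held no such run within 50 bases on either side of the start. The rest of the windows was not searched, and in Rpsa a run of this kind begins further before the start.

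A second shared feature lay in the promoters. CCGGAA or its reverse complement TTCCGG, the core bound by ETS factors such as GABP, was found on either strand of the 300-base windows of 26 of the 40 genes (65.0%), against 16.7% of all genes, 24.1% of the genes with a single-symbol probe set on the array and 56.7% of the mitochondrial ribosomal protein genes. CACGTG, the palindromic E-box that MYC and MAX bind, was found for 4 of the 40, against 8.09% of all genes and 32.4% of the ribosome biogenesis genes. The 60 bases before the start of 3 genes that carry the ETS core there are given with the core in capitals.
Rpl37 (chr15:5116553-5116612, plus strand): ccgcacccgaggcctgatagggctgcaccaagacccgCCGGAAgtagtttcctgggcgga
Rpl38 (chr11:114668520-114668579, plus strand): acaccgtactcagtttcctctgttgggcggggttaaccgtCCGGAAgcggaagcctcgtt
Rps10 (chr17:27635245-27635304, minus strand): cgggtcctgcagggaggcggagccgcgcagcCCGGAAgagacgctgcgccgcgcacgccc
These matches describe the letters of the windows and are not mapped binding sites.

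The values were MAS5 signals, a brightness per probe set on a linear scale. The median signal lay between 15.0 and 19.0 on the 6 arrays, and the highest signal of an array between 9203 and 11642. All 8 fixed markers of atrial cardiomyocytes passed the filter on low signal, whereas 4 of 6 fibroblast and 4 of 5 endothelial markers did not, Pdgfra, Postn, Pecam1 and Cdh5 among them. Of the 4 macrophage markers 3 passed, all but Ptprc, and the list summed to between 89.0 and 123 in hypoxia and between 69.4 and 114 in normoxia. Smooth muscle markers, of which 3 of 4 passed and Myh11 did not, summed to between 12110 and 15070 in hypoxia and between 11310 and 13210 in normoxia. The part of other cell types in the values of the ribosomal protein genes was not tested. The oxygen label was checked with Slc2a1, a glucose transporter known to respond to low oxygen, which rose 4.22-fold (adjusted p = 0.00038). Of the 100 brightest probe sets, 60 were annotated to a ribosomal protein of the same symbol pattern, and 34 of the 46 representative probe sets lay in the brightest 1% of all.

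No ribosomal protein transcript passed the test for a difference between hypoxia and normoxia. Of the 46 genes, 43 passed the filter (a mean log2 signal above the median over all probe sets), 23 of the large and 20 of the small subunit. By limma with Benjamini-Hochberg adjustment over all probe sets kept, 0 of these 43 were called at an adjusted p under 0.05, where 0.75% of all 11332 genes tested were called (0.662% higher and 0.0882% lower). The smallest adjusted p was 0.391. At an unadjusted p under 0.05 there were 2 of the 43, against 12.4% of all genes.

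Although no single gene passed, most estimates were small and had the same sign. The log2 fold change (hypoxia over normoxia) was above 0 for 38 of the 43 genes and below 0 for 5, while 44.4% of all genes tested were above 0. Its median was 0.11, a fold of 1.08, against -0.04 over all genes. In 12 genes all 3 hypoxic arrays lay above all 3 normoxic arrays, against 8.16% of all genes, and in 1 all 3 lay below, against 9.91%. The sign of this median depended on how the arrays were scaled: it was 0.012 after quantile normalization and -0.0039 after cyclic loess, with 26 and 21 of the 43 genes above 0. Centring each array on its median moved the median of all genes by 0.11 and that of the ribosomal protein genes to 0.22, so that the distance between them stayed as it was.

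**Figure D1:**
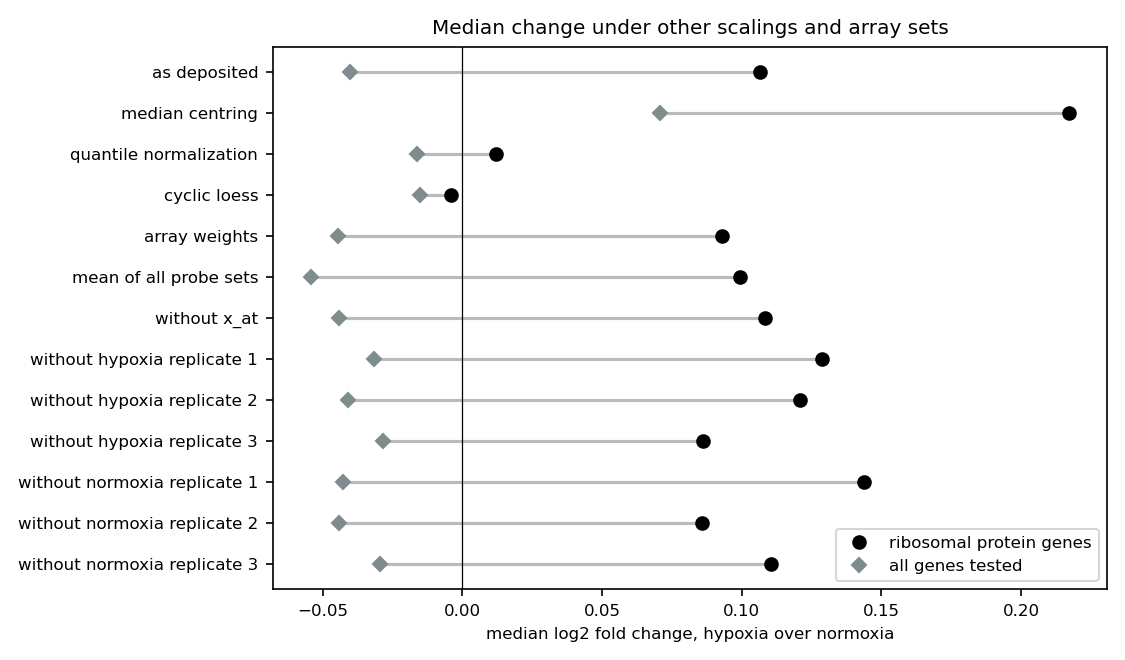
Median log2 fold change, hypoxia over normoxia (horizontal axis), of the ribosomal protein genes (black circles) and of all genes tested (grey diamonds) under the deposited scaling, other scalings, other choices of probe sets and with each array left out (rows). The 2 medians stand apart as deposited (0.11 and -0.04) and lie close together after quantile normalization (0.012 and -0.016) and cyclic loess (-0.0039 and -0.015).

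The spread between arrays set how small a difference could be seen. For the 36 genes with a mean signal over 1000 (1276 to 8920), the median standard error (SE) was 0.09 on the log2 scale, against 0.20 over all genes tested. Over the 87 brightest genes outside the set it was also 0.09. Of the 95% intervals of the 36 genes, 34 held 0 and 2, those of Rps19 and Rps3, lay above it. The intervals of these 36 genes ran from a fold of 0.779 at the lowest bound to 1.60 at the highest. Changes of the size of Slc2a1 lay outside all of them. These outermost bounds are no limit of detection for each gene, as the median half-width of the 36 intervals was 0.20 on the log2 scale. Sizes within a gene's own interval could not be told apart with 3 arrays in each group.

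**Figure D2:**
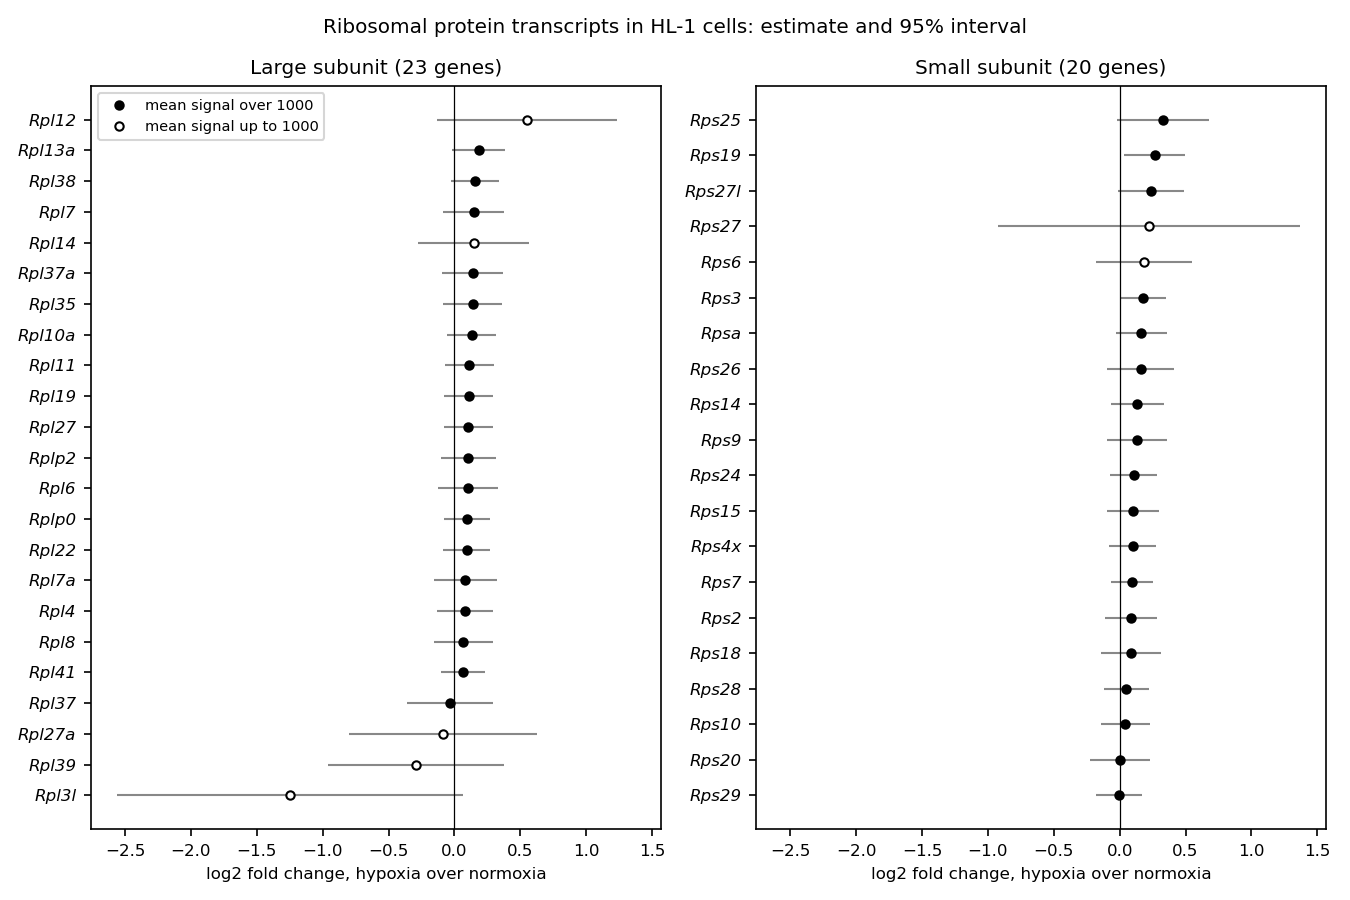
Log2 fold change, hypoxia over normoxia, of each ribosomal protein gene that passed the filter (circles, estimate; lines, 95% interval), large subunit on the left and small subunit on the right; filled circles have a mean signal over 1000. Most estimates sit just right of 0 with intervals across it, and the widest intervals belong to genes with low signal, Rpl3l and Rps27.

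The acidic stalk of the large subunit recruits the factors that drive elongation. Its base protein Rplp0 had signals of 7420.8, 7749.1 and 7198.5 in hypoxia and 6943.2, 6699.9 and 7284.8 in normoxia. The groups overlapped, since normoxia replicate 3 was above hypoxia replicate 3, and the log2 fold change was 0.10 (SE 0.08, adjusted p = 0.687). Rplp2, a stalk protein that binds to it, had signals of 7398 ± 389 in hypoxia and 6889 ± 699 in normoxia (mean ± SD over 3 arrays, here and below), overlapping groups and an estimate of 0.11 on the log2 scale (SE 0.09, adjusted p = 0.717). Rplp1, its partner, was annotated only together with another symbol and is no member of the set. After cyclic loess the estimates of Rplp0 (-0.019) and Rplp2 (-0.0084) were below 0, as was that of Rpl22 (-0.015).

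Rpl11, which binds Mdm2 when ribosome assembly is disturbed, had signals of 4309.4, 4364.1 and 4549.9 in hypoxia and 4222.6, 3964.6 and 4034.7 in normoxia. All hypoxic arrays were higher, by a narrow margin over normoxia replicate 1, and the log2 fold change was 0.11 (SE 0.08, adjusted p = 0.652). Rpl13a, also known for its part in silencing inflammatory mRNAs in human monocytes and often used as a reference transcript, had signals of 7920.4, 7358.7 and 7891.1 in hypoxia and 7230.3, 7087.7 and 6089.8 in normoxia. The groups did not overlap, with normoxia replicate 3 the lowest, and the log2 fold change of 0.19 (SE 0.09, adjusted p = 0.498) was the largest of the large subunit genes with a signal over 1000. Without normoxia replicate 3 it was 0.11. Its other 3 probe sets had log2 fold changes between 0.08 and 0.13.

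Rpl38, needed in mouse embryos for the translation of some Hox mRNAs, had signals of 6829 ± 364 in hypoxia and 6125 ± 239 in normoxia, with no overlap and an estimate of 0.16 on the log2 scale (SE 0.08, adjusted p = 0.531). Rpl7 had 6006 ± 712 and 5404 ± 377, with a log2 fold change of 0.15 and groups that overlapped. Rpl22, a protein that T cell development in mice depends on, had 6398 ± 186 and 5995 ± 312, with no overlap, and an estimate of 0.09 on the log2 scale (SE 0.08, adjusted p = 0.704). Rpl37 was the only large subunit gene with a signal over 1000 and an estimate below 0, at -0.03 (1258 ± 144 in hypoxia and 1294 ± 227 in normoxia, adjusted p = 0.952), and it was above 0 after median centring (0.078) and with array weights (0.048). Over the 18 large subunit genes with a signal over 1000, log2 fold changes lay between -0.03 and 0.19, with a median of 0.11.

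Rpl3l, the paralog of Rpl3 that is made in striated muscle, had the lowest estimate of all members. Its signals were 33.1, 20.9 and 5.3 in hypoxia and 34.1, 36.6 and 39.3 in normoxia. The normoxic arrays lay close together, whereas the hypoxic ones ranged from just below them to under the level of the filter, a signal of 14.1. The log2 fold change was -1.25 (SE 0.59, unadjusted p = 0.0607 and adjusted p = 0.485 by limma), with an interval from -2.56 to 0.07. Without hypoxia replicate 3 it was -0.48 (adjusted p = 0.716). Rpl3 itself was annotated only together with other symbols.

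**Figure D3:**
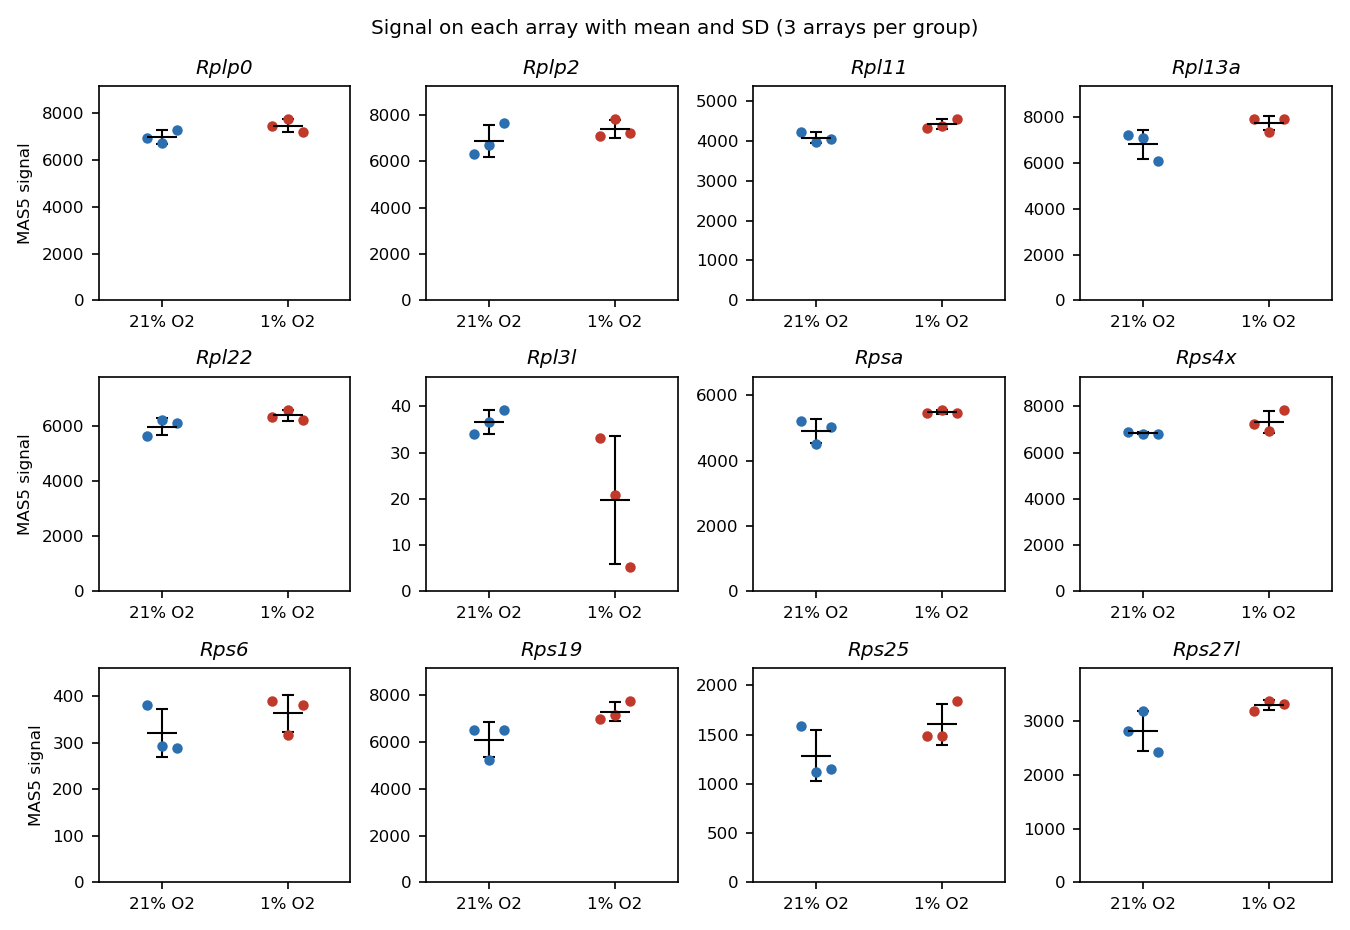
MAS5 signal (linear axis from 0) on each array for 12 ribosomal protein genes, with normoxia (21% O2, blue) and hypoxia (1% O2, red); bars give the mean and SD of 3 arrays, and points run from replicate 1 to 3 from left to right. For the bright genes both groups sit close together, whereas Rpl3l spreads from 5.3 to 33.1 in hypoxia.

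In the small subunit the highest estimates were those of Rps25, Rps19, Rps27l and Rps27. Rps19, whose human gene is the one most often mutated in Diamond-Blackfan anaemia, had signals of 6976.2, 7127.9 and 7748.3 in hypoxia and 6509.6, 5233.7 and 6513.6 in normoxia. The groups did not overlap, with normoxia replicate 2 well below the rest, and the log2 fold change was 0.27 (SE 0.10, unadjusted p = 0.0286 and adjusted p = 0.391 by limma). Without that array it was 0.16 (adjusted p = 0.785). Rps25, a protein that initiation at several viral internal entry sites needs, had signals of 1484.6, 1485.5 and 1844.3 in hypoxia and 1587.3, 1122.3 and 1153.0 in normoxia. Normoxia replicate 1 lay within the hypoxic range, and the log2 fold change was 0.33 (SE 0.16, adjusted p = 0.489). A brighter probe set, annotated to Rps25 and other symbols, had 7755 ± 661 in hypoxia and 7025 ± 439 in normoxia. Its groups overlapped too, and its log2 fold change was 0.14 (SE 0.09).

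Rps27l, a paralog of Rps27 and a target of p53, had signals of 3191.2, 3376.8 and 3307.5 in hypoxia and 2815.2, 3176.9 and 2430.1 in normoxia. The groups were separated by a narrow gap to normoxia replicate 2, and the log2 fold change was 0.24 (SE 0.11, adjusted p = 0.482). Without normoxia replicate 3 it was 0.14. Its other 2 probe sets had log2 fold changes of 0.22 and 0.25. Rps3, which lies where the mRNA enters the ribosome and was chosen after its values were seen, had signals of 6317.8, 6352.1 and 6551.0 in hypoxia and 5873.7, 5401.5 and 5749.0 in normoxia. The groups did not overlap, and the log2 fold change was 0.18 (SE 0.08, unadjusted p = 0.0487 and adjusted p = 0.454 by limma).

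Rpsa, also known as a laminin receptor, had signals of 5484 ± 60.1 in hypoxia and 4900 ± 361 in normoxia, with no overlap and an estimate of 0.16 on the log2 scale (SE 0.09, adjusted p = 0.533). Rps4x, encoded on the X chromosome, had 7339 ± 474 and 6848 ± 55.7, again with no overlap, and a log2 fold change of 0.10. At the other end, Rps29 had 8910 ± 382 in hypoxia and 8929 ± 460 in normoxia and a log2 fold change of -0.0026, with an interval from -0.18 to 0.17. Rps20 had a log2 fold change of 0.0041, Rps10 of 0.04 and Rps28 of 0.05, with groups that overlapped in all 3. After cyclic loess and quantile normalization these estimates of Rps10, Rps20 and Rps28 were below 0. Of the other probe sets of Rps10 that passed the filter, 3 had estimates of 0.13 to 0.14 and 1 of -0.77. Those of Rps29 had 0.08 and 0.07, those of Rps28 0.12 and 0.05, and those of Rps20 0.13 and, at a low signal, 0.82. Over the 18 small subunit genes with a signal over 1000, log2 fold changes lay between -0.0026 and 0.33, with a median of 0.10.

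The 2 subunits had medians close to each other. The median log2 fold change was 0.11 over the 23 large subunit genes and 0.12 over the 20 small subunit genes that passed the filter, a difference of -0.012. Of these, 19 of 23 and 19 of 20 were above 0. The estimates below 0 in the large subunit were those of Rpl3l, Rpl39, Rpl27a and Rpl37, of which the first 3 had a signal under 1000. On brighter probe sets annotated to several symbols, given below, Rpl39 and Rpl27a had estimates above 0. With probe sets ending in x_at left out, which by the maker's naming can bind transcripts of several genes, the small subunit median was 0.16 and the difference -0.06. On single arrays, the median deviation of the large minus that of the small subunit genes was -0.057, -0.016 and 0.0017 in the hypoxic arrays and 0.054, 0.0049 and -0.01 in the normoxic ones. The means, -0.024 ± 0.030 in hypoxia and 0.016 ± 0.034 in normoxia, lay further apart than 1 SD of either group, but the arrays of the groups overlapped.

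Part of the spread between arrays was shared by the ribosomal protein genes. After each gene was centred on its mean over the 6 arrays, the median over the 20 small subunit genes was 0.06, 0.05 and 0.10 in hypoxia and -0.02, -0.11 and -0.06 in normoxia. The median over the 23 large subunit genes was 0.0065, 0.04 and 0.10 in hypoxia and 0.03, -0.11 and -0.07 in normoxia. The groups did not overlap for the small subunit, while for the large subunit normoxia replicate 1 lay above hypoxia replicate 1. Hypoxia replicate 3 had the highest signal for 20 of the 36 genes with a signal over 1000, and normoxia replicate 2 the lowest for 26.

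Other bright transcripts moved with the same arrays. Over the 826 other genes with a mean signal over 1000, the centred median was 0.02, -0.03 and 0.10 in hypoxia and 0.03, -0.09 and -0.04 in normoxia, so hypoxia replicate 3 was again highest and normoxia replicate 2 lowest. Their median log2 fold change was 0.05, with 501 above 0 and 325 below. The limit of 1000 was chosen after the data were seen, and the part that signal level plays in the estimates of the ribosomal protein genes was not tested. Leaving out normoxia replicate 2 gave a median over the ribosomal protein genes of 0.09, and leaving out hypoxia replicate 3 gave 0.09, against 0.14 without normoxia replicate 1.

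**Figure D4:**
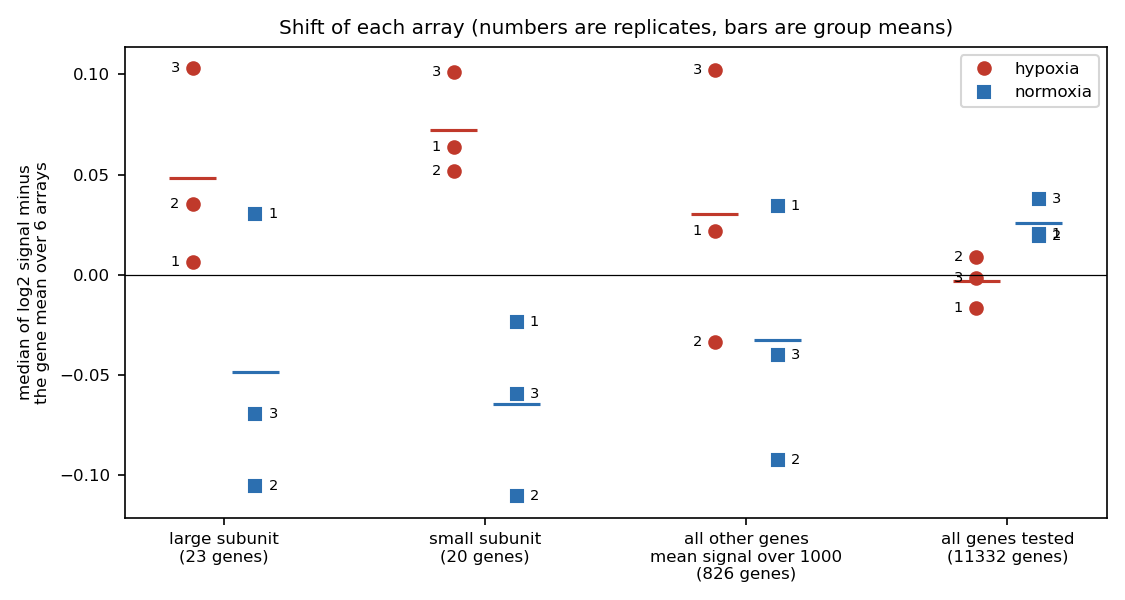
Median over genes of the log2 signal minus each gene's mean over the 6 arrays (vertical axis), for each array of hypoxia (red circles) and normoxia (blue squares), with replicate numbers beside the points and group means as bars. Hypoxia replicate 3 is highest and normoxia replicate 2 lowest for both subunits and for the 826 other bright genes.

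For genes of the set, the spread between arrays of the same group was small. The median SD within groups was 0.10 on the log2 scale for the 36 bright ribosomal protein genes, against 0.15 for other genes over a signal of 1000 and 0.24 for all genes tested. These other genes were not matched in brightness. The 87 brightest genes outside the set had a median SE of 0.0905, close to the 0.0886 of the 36 genes. These SEs are moderated by limma, whose trend draws the variances of genes with like signal toward a common value. The SD within groups was not taken over the 87 genes. Whether a small spread was particular to ribosomal protein genes was not tested.

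**Figure D5:**
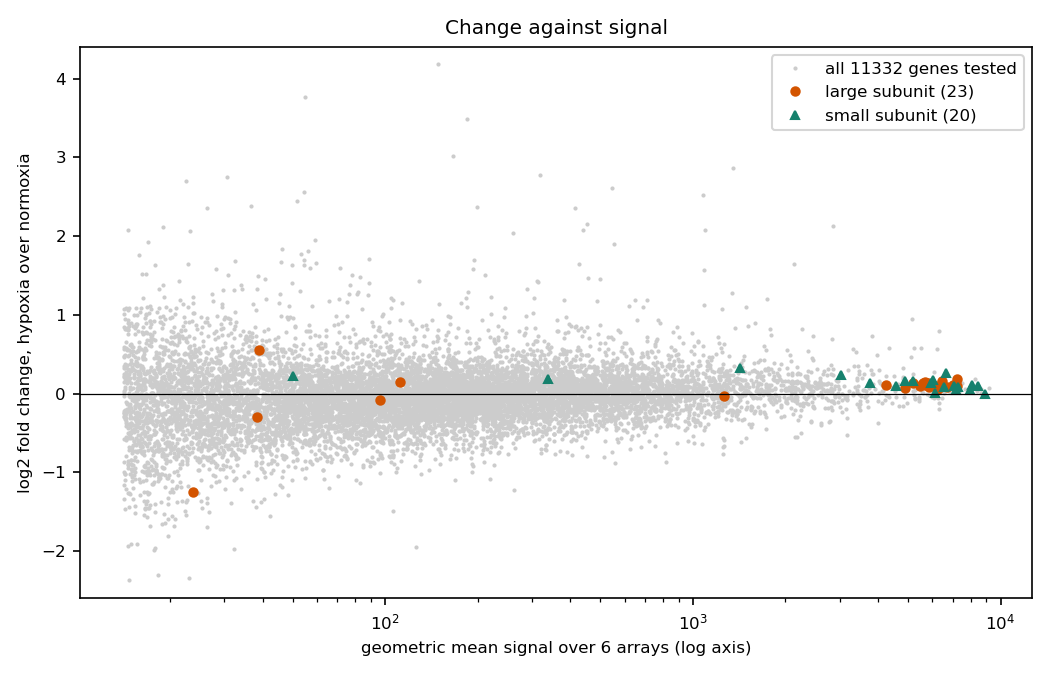
Log2 fold change, hypoxia over normoxia (vertical axis), against the geometric mean signal over 6 arrays (log axis) for all 11332 genes tested (grey) and the ribosomal protein genes of the large (orange circles) and small (green triangles) subunit. Most ribosomal protein genes cluster at the right edge, a little above 0, and 7 lie at signals under 1000.

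For 10 genes the representative probe set had a mean signal of at most 1000, and 3 of these, Rpl39l, Rps4l and Rps16, did not pass the filter. The other 7 were Rpl12, Rpl14, Rpl27a, Rpl39, Rpl3l, Rps27 and Rps6. Rpl12, a protein at the base of the stalk, had signals of 36.4, 46.6 and 61.7 in hypoxia and 44.9, 25.5 and 29.1 in normoxia, which overlapped (log2 fold change 0.55, SE 0.31, adjusted p = 0.558). Rpl39, a protein of the exit tunnel, had signals of 26.2, 40.1 and 39.2 in hypoxia and 42.3, 55.9 and 31.9 in normoxia, with overlap and a log2 fold change of -0.29 (SE 0.30). Rpl27a had 93.3 ± 7.56 and 107 ± 48.3. Rps27 had 64.9 ± 50.2 and 51.0 ± 28.2, with replicate 2 the highest in both groups. Rps6, the substrate of the S6 kinases downstream of mTORC1, had 390.9, 317.3 and 382.0 in hypoxia and 381.0, 293.5 and 288.7 in normoxia, with overlap (log2 fold change 0.18, SE 0.16, adjusted p = 0.72).

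Some of these genes were also on brighter probe sets annotated to several symbols. Rps16 had a signal of 0.5 on each hypoxic array on its only single-symbol probe set. Its brightest shared probe set, annotated to Rps16 and 2 other symbols, had 7973.0, 8850.7 and 8770.7 in hypoxia and 7940.4, 7467.4 and 8632.7 in normoxia, which overlapped (log2 fold change 0.09, adjusted p = 0.734). On its other shared probe set the groups did not overlap (8644 ± 186 and 7716 ± 438, log2 fold change 0.17, adjusted p = 0.478). The brightest shared probe set of Rps6 had 7958 ± 1045 in hypoxia and 7552 ± 616 in normoxia (0.07), that of Rpl12 8003 ± 402 and 7280 ± 793 (0.14), and that of Rpl39 7667 ± 964 and 7458 ± 629 (0.04). Such probe sets can mix transcripts of several loci. When shared probe sets with 1 matching ribosomal protein symbol were also allowed, a choice made after the data were seen, 69 genes passed the filter. Of these 0 were called, 65 were above 0, 4 had an unadjusted p under 0.05, and the median was 0.11. Over all genes tested, 0.75% were called, 44.4% were above 0 and 12.4% had such a p. The 25 genes that only this choice added had a median of 0.11, with 24 above 0.

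Most further probe sets of the same genes had estimates of the same sign. Of 54 other single-symbol probe sets of the 46 genes, 40 passed the filter, 35 of them with an estimate above 0 and 5 below, and 0 were called (smallest adjusted p = 0.417). For the 34 of these with a mean signal over 1000, the median log2 fold change was 0.11 and 31 were above 0. One exception was a probe set of Rps10, ending in x_at, with signals of 4250.9, 3221.7 and 893.4 in hypoxia and 2825.9, 4957.6 and 4351.6 in normoxia (log2 fold change -0.77, adjusted p = 0.601). Hypoxia replicate 3 alone was low there, whereas on the representative probe set of Rps10 it had 6782.7 beside 7595.1 and 7410.5.

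Among 4 ribosomal proteins or paralogs that the symbol pattern leaves out, 0 passed by limma and 2, Rpl22l1 and Fau, had an unadjusted p under 0.05. The shares over all genes tested were 0.75% and 12.4%. Rpl22l1, the paralog of Rpl22, had signals of 2838.4, 2237.4 and 2344.9 in hypoxia and 2166.4, 1687.3 and 1452.5 in normoxia, with no overlap. Its log2 fold change was 0.50 (SE 0.16, adjusted p = 0.269), and it passed with array weights (adjusted p = 0.045, range over all alternatives 0.045 to 0.69). Fau, which encodes a small subunit protein fused to a ubiquitin-like domain, had 5647 ± 80.9 and 4780 ± 433 (log2 fold change 0.24, SE 0.09, adjusted p = 0.365), and Rps3a1 8859 ± 893 and 7779 ± 450 (0.18, SE 0.09, adjusted p = 0.523). Rpl7l1 had a log2 fold change of -0.06.

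Changes of paralogs were compared with those of their partner genes for the 3 pairs with both past the filter. Of these genes, Rps27 had a low signal, 64.9 ± 50.2 in hypoxia and 51.0 ± 28.2 in normoxia. With an SE of 0.51 for its log2 fold change, the comparison with Rps27l is uncertain. The log2 ratio of Rpl22l1 to Rpl22 was higher in hypoxia by 0.40 (exact permutation test, two-sided, p = 0.3, adjusted p = 0.45). That of Rpl7l1 to Rpl7 differed by -0.21 (exact permutation p = 0.3, adjusted p = 0.45) and that of Rps27l to Rps27 by 0.013 (exact permutation p = 1.0, adjusted p = 1.0). With 3 arrays in each group this test cannot give a p below 0.1, so none of the pairs could have passed.

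The list of translation factors and other proteins with TOP mRNAs was described in the same way. Of 19 measured, 0 passed by limma, 1 had an unadjusted p under 0.05, 16 were above 0 and the median log2 fold change was 0.10. Of all genes tested 0.75% were called, 12.4% had such a p and 44.4% were above 0. Pabpc1, the cytosolic poly(A)-binding protein, had signals of 3868.8, 4165.5 and 4626.3 in hypoxia and 3398.5, 3239.0 and 3641.0 in normoxia, with no overlap (log2 fold change 0.30, SE 0.10, adjusted p = 0.297). Npm1, a nucleolar chaperone, had a log2 fold change of 0.25 and Nap1l1, a histone chaperone, of 0.26. Eef1a1, the factor that brings aminoacyl-tRNA to the ribosome, had 8797 ± 826 and 8460 ± 369, with a log2 fold change of 0.05 that was -0.07 after cyclic loess.

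Ribosome assembly takes many further proteins. Of 43 ribosome biogenesis genes, 0 passed by limma, 2 had an unadjusted p under 0.05, 17 were above 0 and 26 below, and the median log2 fold change was -0.06, close to the -0.04 of all genes, of which 12.4% had such a p and 44.4% were above 0. Bysl, a factor of small subunit maturation, had signals of 188.4, 253.2 and 227.4 in hypoxia and 316.2, 298.9 and 359.4 in normoxia, with no overlap (log2 fold change -0.55, SE 0.16, adjusted p = 0.235). Ddx21, a nucleolar helicase, had 165 ± 2.98 and 214 ± 16.2 (-0.37, SE 0.15, adjusted p = 0.401). Polr1d, a subunit shared by RNA polymerases I and III, had a log2 fold change of 0.22, and Ncl, the nucleolar protein nucleolin, of 0.03.

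Mitochondrial ribosomal proteins, the counterpart set in the organelle, had a median log2 fold change of -0.10 over 76 genes, with 22 above 0, 54 below and 0 called by limma (5 at an unadjusted p under 0.05, against 12.4% of all genes). All 3 hypoxic arrays were lower in 12 of them and higher in 1, against 9.91% lower and 8.16% higher of all genes tested. Mrps35 had signals of 423 ± 25.7 in hypoxia and 557 ± 17.9 in normoxia (log2 fold change -0.40, SE 0.12, adjusted p = 0.266), Mrpl2 439 ± 26.0 and 577 ± 34.0 (-0.39, adjusted p = 0.277) and Mrps16 1247 ± 53.9 and 1523 ± 102 (-0.29, adjusted p = 0.368). Mrps6, the brightest of the list, had a log2 fold change of -0.13. The difference between the cytosolic and mitochondrial sets was not tested.

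Among 20 genes that control ribosomal protein synthesis, 1 rose and 0 fell, while 0.662% of all genes tested were called higher and 0.0882% lower. An unadjusted p under 0.05 by limma was reached by 3 of the 20, against 12.4% of all genes. Estimates were above 0 for 9 and below 0 for 11, while 44.4% of all genes were above 0. Ddit4 (REDD1), an inhibitor of mTORC1, had signals of 376.7, 282.1 and 230.0 in hypoxia and 122.1, 116.0 and 119.3 in normoxia. The groups lay far apart, and Ddit4 rose by 1.28 on the log2 scale (SE 0.19, adjusted p = 0.0186). The call was lost on leaving out hypoxia replicate 1 (adjusted p = 0.109) or 2 (0.0772), or normoxia replicate 2 (0.0735) or 3 (0.102), and with eBayes without a trend (0.118), and over all alternatives the adjusted p ran from 0.00255 to 0.118. Mdm2, the ubiquitin ligase that Rpl11 binds, had 464.4, 479.1 and 514.6 in hypoxia and 471.3, 224.4 and 251.5 in normoxia. Normoxia replicate 1 lay within the hypoxic range, and the log2 fold change was 0.70 (SE 0.25, adjusted p = 0.342); without that array Mdm2 passed (adjusted p = 0.0183, range over all alternatives 0.0183 to 0.727). Eef2k, the kinase that inhibits elongation factor eEF2, had 92.1 ± 8.73 in hypoxia and 127 ± 8.04 in normoxia, with no overlap (log2 fold change -0.47, SE 0.17, adjusted p = 0.348). Cnbp, a protein that binds TOP mRNAs, had a log2 fold change of -0.05. The median of this list was -0.06.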

How the data were processed

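The deposited values were intensities, 1 signal per probe set and array on a linear scale. Per the submitters' processing notes they came from MAS5; its settings are unknown here. On every array the mean, with 2% trimmed from both ends, was 99.5, so no further scaling was applied, and 0 of the 15 pairs of arrays were identical. Of 45037 probe sets, 34945 had 1 gene symbol and 932 several, from a platform annotation that can be old. Values of 0 (10 in all) were set to the smallest signal above 0, 0.1. Probe sets whose mean log2 signal lay above the median (22518) were fitted with limma 3.58.1 in R 4.3.3 (lmFit, eBayes with trend), hypoxia against normoxia, two-sided, without covariates, with Benjamini-Hochberg adjustment over all of them and calls at 0.05. The number of arrays limits the precision.

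Members and gene lists were chosen with earlier results of these data known. Named were the 4 highest and 4 lowest estimates of each subunit, a fixed set of members, and up to 4 genes of each related list, the 3 with the smallest p and the brightest. Lists are described by counts and medians, without a test. Promoter windows came from RefSeq (GRCm38.p6). The fit was tested on simulated data. Alternatives were other scalings, an offset of 2.9, other filters, no trend, a block for the replicate number, array weights, the mean of all probe sets, no x_at probe sets and leaving out each array.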

Additional observations from a re-analysis of the deposited data

How the results depend on the processing

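The count of 0 ribosomal protein genes called was the same under all 17 alternatives chosen at the outset and both added later. The subunit medians (0.11 large, 0.12 small) were -0.0058 and 0.015 after cyclic loess, 0.012 and 0.018 after quantile normalization and 0.22 and 0.23 after median centring, and the small subunit median was 0.16 without x_at probe sets. The difference between them (-0.012) was -0.061 without x_at probe sets, -0.044 with array weights and between -0.064 and 0.0031 with 1 array left out. Over the related lists 1 gene was called, and 2 were with array weights, of which 1 was a ribosomal protein outside the symbol pattern. Without a trend 0 were called, 0 of them in the list that controls ribosomal protein synthesis, and with 1 array left out 0 to 2 were called, both over all lists and in that one list. The causes were not tested. Leaving out 1 array changes both the number of samples and which arrays are present. With the replicate number as a block, which leaves fewer degrees of freedom, 0 members were called, 1 gene of the related lists was (Ddit4, adjusted p = 0.0335), and the smallest adjusted p of a member was 0.442. Deviations of same-numbered arrays correlated at -0.076, 0.21 and -0.14, so the numbers were not taken to pair the arrays, and hypoxia replicate 3 correlated best with normoxia replicate 1.

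Estimates near 0, none of them called, changed sign under some alternatives. After cyclic loess these were Rpl22 (-0.015), Rplp0 (-0.019), Rplp2 (-0.0084), Rps10 (-0.071), Rps20 (-0.11), Rps28 (-0.067), Rps4x (-0.017), Eef1a1 (-0.069) and Ncl (-0.046). After quantile normalization they were Rpl22 (-0.0089), Rps10 (-0.052), Rps20 (-0.082), Rps28 (-0.028), Eef1a1 (-0.044) and Ncl (-0.05). After median centring they were Rpl27a (0.025), Rpl37 (0.078), Rps29 (0.11) and Cnbp (0.057), and with array weights Rpl27a (0.22), Rpl37 (0.048) and Ncl (-0.0069). For the mean of all probe sets they were Rps29 (0.049), Rps4x (-0.32), Rps6 (-0.032), Rpsa (-0.059) and Ncl (-0.083). The only other probe sets of Rps4x (signals of 1.0 to 3.1) and Rpsa (1.6 to 8.7) lay below the filter, and those low signals entered these means. The difference between Rps27l and Rps27 was -0.15, -0.12 and -0.034 after cyclic loess, quantile normalization and with array weights. With 1 array left out that difference ranged from -0.31 to 0.59, Rps27 from -0.37 to 0.65, Rpl27a from -0.49 to 0.23, Rpl37 from -0.12 to 0.11, Rps20 from -0.067 to 0.091, Rps29 from -0.046 to 0.031, Eef1a1 from -0.019 to 0.11, Ncl from -0.026 to 0.084 and Cnbp from -0.19 to 0.10.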
